A study of Mus musculus with 10 samples.

Results

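The 35 genes described here encode the folding machinery of the endoplasmic reticulum and the sensors and effectors of the unfolded protein response (UPR), and they were taken from 22180 genes measured in the mouse jejunum. A gene was included when its symbol was on a named list and a probe set carried that symbol alone, and all 35 were found. Where a gene had several such probe sets, the one with the highest mean was used. The rule itself used no measured difference between the groups, but the list was written with earlier results of these data known.

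The samples were 10 pieces of jejunum from female mice aged 10 to 12 weeks, 1 Affymetrix array each. The 5 knockouts had the genotype Pcyt1aLoxP/LoxP;VilCreERT2, in which the villin promoter drives a tamoxifen-inducible Cre recombinase in the gut epithelium. The 5 controls were Pcyt1aLoxP/LoxP without Cre. Mice of both groups were given tamoxifen for 5 days, a high fat diet for 4 days and an overnight fast, and the 3 cm piece held muscle, stroma and immune cells as well as epithelium. The series text also mentions feeding after the fast and the controls' source labels speak of lost phosphatidylcholine synthesis, so the groups follow titles and genotypes.

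Secreted and membrane proteins enter the endoplasmic reticulum through the Sec61 channel and are folded there by chaperones, disulfide isomerases and lectins, while proteins that fail are sent back to the cytosol for degradation, a route called ERAD. IRE1, ATF6 and PERK sense unfolded protein. IRE1 splices Xbp1 mRNA, ATF6 moves to the Golgi and is cut by the site-1 and site-2 proteases, and PERK slows translation and raises ATF4. A changed makeup of membrane phospholipids can also activate these sensors, and Pcyt1a, the gene deleted here, controls the synthesis of phosphatidylcholine, the main phospholipid of that membrane. The comparison asks how these genes stood in jejunum whose epithelium had lost Pcyt1a.

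The targeted gene separated the groups. Pcyt1a read 7.14, 7.80, 7.30, 7.54 and 7.53 on the log2 scale in knockouts 1 to 5 and 9.55, 9.25, 9.50, 9.18 and 9.48 in controls 6 to 10, a log2 difference of -1.93 (SE 0.13, limma adjusted p = 9.577e-05). All log2 differences are knockout minus control. Enterocyte markers were bright in both groups: Sis, which encodes sucrase-isomaltase, read 13.10 ± 0.15 in knockouts and 13.19 ± 0.10 in controls, and Fabp2, the intestinal fatty acid binding protein, read 13.48 ± 0.08 and 13.39 ± 0.10 (log2 intensity, SD, n = 5 each). Correlations between arrays across genes, which are not independent replicates, lay between 0.973 and 0.991. In pieces of whole tissue, fewer cells of a type and less RNA per cell cannot be told apart.

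As a set, these genes lay slightly above the controls, and none passed the test over all genes. Of the 35 members, 28 had a positive and 7 a negative log2 difference, with a median of 0.14 and a range from -0.28 to 0.52. Over all genes 46.8% had a positive difference. Limma called 0 of 35 at an adjusted p under 0.05, against 0.0271% of all genes, and their adjusted p-values lay between 0.118 and 0.981. At an unadjusted limma p under 0.05, 11 members were higher and 1 was lower in knockouts, which is 31.4% and 2.86% of the members. The same rule took 8.29% of all 22180 genes as higher and 5.56% as lower. The knockout and control values did not overlap for 5 members, all higher in knockouts, or 14.3%. Of all genes 2.60% did not overlap, 1.64% higher and 0.965% lower. Of the members 33 averaged 6 or more on the log2 scale. Among the 10336 genes that bright 15.5% were higher at an unadjusted p under 0.05 and 3.86% did not overlap. The median difference of these brighter genes was 0.034. The median over all 22180 genes was -0.014. The shares over all genes, 8.29% higher and 5.56% lower, stand beside every count by role or list below.

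The 11 members higher at the unadjusted threshold were the disulfide isomerases Pdia5, Pdia6 and Pdia3, the co-chaperone Dnajc10, the lectin Canx, the chaperone partners Sdf2l1 and Hyou1, the protease Mbtps2, the sensor Atf6b and the ERAD components Derl2 and Selenos. The member that was lower was Dnajb9. Groups did not overlap for Pdia5, Pdia3, Mbtps2, Derl2 and Selenos. Leaving out knockout 1 brought the higher count from 11 to 7, and the share of all genes that were higher from 8.29% to 5.97%. Leaving out knockout 2 brought the non-overlapping count from 5 to 9, of which 8 were higher and 1 lower, and the share of all genes without overlap from 2.60% to 7.66%. The same fit called 452 genes in all at an adjusted p under 0.05, with Dnajc10, Mbtps2 and Pdia5 among them.

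**Figure D1:**
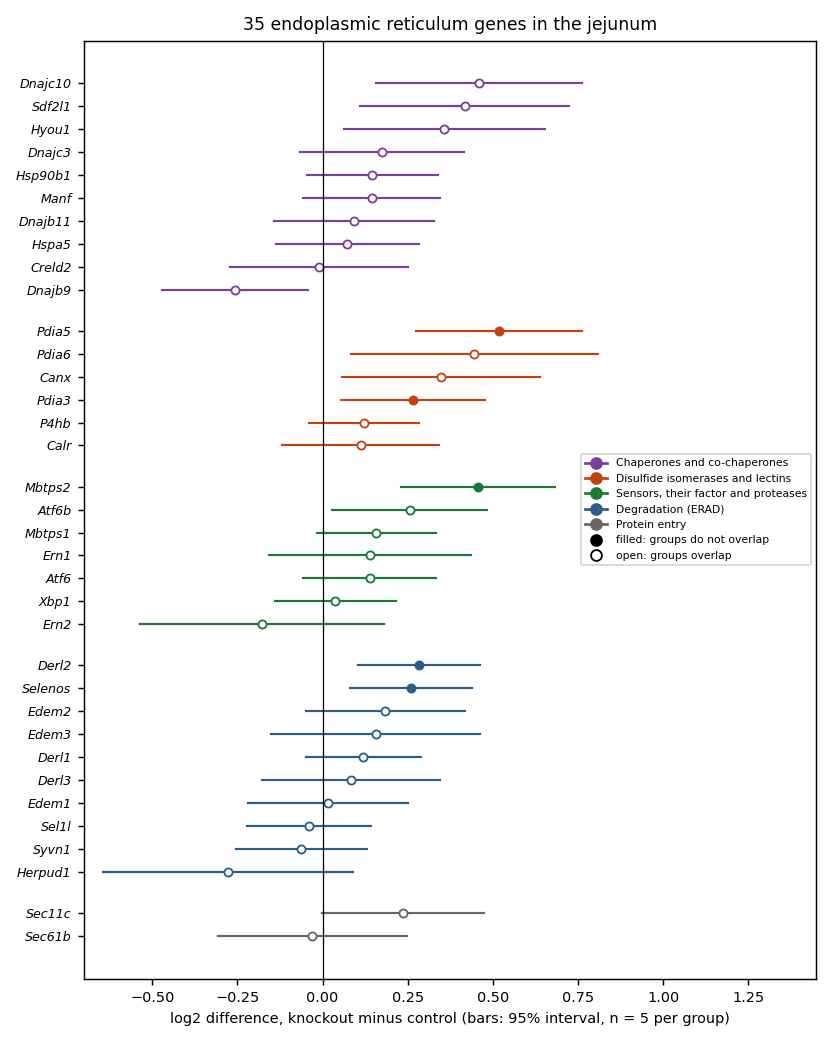
Log2 difference, knockout minus control, of each of the 35 members (circles) with its 95% interval from limma (bars), grouped by role and coloured by group, n = 5 arrays each. Filled circles mark the 5 members whose groups did not overlap. Of the 35 points, 28 lie above 0, and Dnajb9 is the only member whose whole interval lies below it.

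The main chaperones had intervals that included 0. Hspa5 encodes BiP, the Hsp70 of the endoplasmic reticulum that also holds the sensors inactive, and its level is a standard readout of the UPR. It read 9.63, 9.44, 9.34, 9.35 and 9.31 in knockouts 1 to 5 and 9.44, 9.27, 9.17, 9.52 and 9.31 in controls 6 to 10. The ranges overlapped between 9.31 and 9.52. Knockout 1 alone lay above every control, and controls 7 and 8 lay below every knockout. The log2 difference was 0.072 (SE 0.096, 95% interval -0.14 to 0.28, limma adjusted p = 0.782), so the interval reached from 0.909 to 1.22 times the control level. Hsp90b1, the Hsp90 of the same compartment, had a log2 difference of 0.15 (95% interval -0.046 to 0.34).

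Several members carry a known response element in their promoters. ATF6 and XBP1 act with NF-Y through the ER stress element (ERSE), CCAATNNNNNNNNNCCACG, whose CCAAT and CCACG boxes are separated by 9 bases. The RefSeq promoter table (GRCm38.p6) held a 300-base window, from 250 bases before to 50 after the start, for 29 of the 35 members. Searched on both strands, the element was in the windows of 9 of these 29 genes, or 31.0%, against 0.171% of the 16990 tested genes with a window and 0.119% of all 32851 windows. A match does not by itself divide targets of the response from other genes, and Edem1, an XBP1 target, held none in its window. The matches are shown as a sequence feature of the list. Each is printed 5′ to 3′ in the element's own direction with 10 bases on either side, and capitals mark the matched letters.
Hspa5 (chr2:34772015-34772053, + strand): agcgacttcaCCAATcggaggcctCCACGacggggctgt
Hsp90b1, first match (chr10:86705628-86705666, - strand): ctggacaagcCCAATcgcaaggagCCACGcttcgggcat
Hsp90b1, second match (chr10:86705523-86705561, + strand): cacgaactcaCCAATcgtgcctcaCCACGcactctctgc
Pdia6 (chr12:17266481-17266519, + strand): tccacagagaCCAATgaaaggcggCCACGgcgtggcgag
Canx (chr11:50325790-50325828, - strand): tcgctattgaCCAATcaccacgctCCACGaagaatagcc
Calr (chr8:84847065-84847103, + strand): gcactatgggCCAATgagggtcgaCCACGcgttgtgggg
Dnajc3 (chr14:118937817-118937855, + strand): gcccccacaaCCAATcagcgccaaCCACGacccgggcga
Creld2 (chr15:88819510-88819548, - strand): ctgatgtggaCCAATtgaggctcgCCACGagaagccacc
Derl3 (chr10:75893232-75893270, - strand): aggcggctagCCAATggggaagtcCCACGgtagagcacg
Syvn1 (chr19:6046522-6046560, + strand): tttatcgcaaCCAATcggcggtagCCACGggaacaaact
The ERSE matches ended between 25 bases (Syvn1) and 193 bases (the first of Hsp90b1) before the start.

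A second form of the element, ERSE-II (ATTGGNCCACG, both strands), was in the windows of 2 further members and in 0.0530% of tested genes with a window. It shares the CCACG box with ERSE, and no member held both. The match of Herpud1 lies before the start and is printed with 10 bases on either side, and that of Dnajb11 lies just after the start and is printed with 9.
Herpud1 (chr8:94386367-94386397, + strand): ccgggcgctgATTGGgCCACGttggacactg
Dnajb11 (chr16:22857843-22857871, + strand): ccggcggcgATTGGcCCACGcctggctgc
The core TGACGTGG, also bound by XBP1 and ATF6, was in 0 member windows and in 0.865% of tested genes with a window. No match says only that these letters are not in the window.

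The differences were set beside the elements. Among the 9 genes with ERSE, the median log2 difference was 0.11, with 2 genes higher at an unadjusted limma p under 0.05 (Pdia6 and Canx) and 0 whose groups did not overlap. Among the 18 genes with a window and neither element, the median was 0.17, with 8 higher, 1 lower and 5 whose groups did not overlap. The 2 groups do not divide targets of the response from other genes. The medians are descriptions, and their difference was not tested. The 250 bases before the start are printed for Hspa5, the classical target, for Pdia6, which holds ERSE and was higher at the unadjusted threshold, and for Pdia5, the member with the largest difference, which holds neither element. Capitals mark each CCAAT or CCACG box on either strand.
Hspa5 (chr2:34771840-34772089, + strand): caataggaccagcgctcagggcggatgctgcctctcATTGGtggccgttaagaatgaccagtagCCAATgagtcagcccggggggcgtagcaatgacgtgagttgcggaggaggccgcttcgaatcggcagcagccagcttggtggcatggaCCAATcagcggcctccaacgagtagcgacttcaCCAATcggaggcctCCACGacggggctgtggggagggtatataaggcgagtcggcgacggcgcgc
Pdia6 (chr12:17266339-17266588, + strand): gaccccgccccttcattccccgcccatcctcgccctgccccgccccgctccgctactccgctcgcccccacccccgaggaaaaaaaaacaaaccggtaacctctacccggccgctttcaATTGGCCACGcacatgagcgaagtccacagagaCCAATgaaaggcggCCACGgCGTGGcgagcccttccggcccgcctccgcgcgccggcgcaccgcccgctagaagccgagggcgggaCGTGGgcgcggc
Pdia5 (chr16:35490874-35491123, - strand): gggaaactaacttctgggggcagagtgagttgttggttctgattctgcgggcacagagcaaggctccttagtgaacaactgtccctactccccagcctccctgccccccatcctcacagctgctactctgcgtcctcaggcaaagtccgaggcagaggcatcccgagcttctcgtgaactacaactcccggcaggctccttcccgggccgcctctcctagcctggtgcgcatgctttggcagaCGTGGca
Hspa5 carried 4 CCAAT and 1 CCACG boxes there, Pdia6 2 and 4, and Pdia5 0 and 1.

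Of the 7 genes of the sensors, their factor and the activating proteases, 6 had a positive difference and 2, Mbtps2 and Atf6b, were higher at the unadjusted threshold, with a median of 0.14. Xbp1, whose spliced form is the transcription factor of the IRE1 branch, read 10.46, 10.29, 10.29, 10.35 and 10.38 in knockouts and 10.30, 10.40, 10.20, 10.45 and 10.23 in controls. The values of both groups were interleaved. The log2 difference was 0.038 (SE 0.081, 95% interval -0.14 to 0.22, limma adjusted p = 0.873), and a single value per gene does not tell the spliced from the unspliced transcript.

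Ern1, which encodes the widely expressed IRE1 alpha, read 8.26, 8.05, 8.30, 7.86 and 8.14 in knockouts and 7.83, 8.23, 7.59, 8.04 and 8.22 in controls. Its difference of 0.14 (SE 0.14, limma adjusted p = 0.689) lay within the spread of the arrays. Ern2 encodes IRE1 beta of the mucus-producing gut epithelium and read 7.83, 7.28, 8.04, 7.38 and 7.89 in knockouts and 7.59, 7.78, 7.72, 8.05 and 8.17 in controls, with knockouts 2 and 4 below every control. Its difference of -0.18 (SE 0.17, limma adjusted p = 0.672) stood beside goblet cell markers, of which 6 of 15 were lower and 1 higher at an unadjusted p under 0.05, with list means of 9.33 to 9.82 in knockouts and 9.57 to 9.96 in controls. With the goblet mean as a term the Ern2 difference was -0.012 (SE 0.097). It was -0.255 (SE 0.107) with the Paneth mean and -0.564 (SE 0.214) with the cell cycle mean, both past the unadjusted threshold. The plasma and B cell mean gave -0.208 (SE 0.181) and the smooth muscle mean -0.168 (SE 0.173). The Ern2 difference was 0.145 (SE 0.187) with the endothelium mean and 0.109 (SE 0.168) with the macrophage mean. The cause of the Ern2 difference was not tested.

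Atf6 read 9.42, 9.25, 9.28, 9.14 and 9.32 in knockouts and 8.96, 9.11, 9.13, 9.21 and 9.31 in controls. Its difference was 0.14 (SE 0.090, limma adjusted p = 0.528), and 2 knockouts lay above every control. Its relative Atf6b, which is cut in the same way, read 7.90, 7.57, 7.83, 7.76 and 7.69 against 7.40, 7.41, 7.31, 7.75 and 7.60, a difference of 0.26 (SE 0.10, limma adjusted p = 0.301). Controls 9 and 10 lay within the range of the knockouts, and the other 3 controls lay below it. Atf6b was past the unadjusted threshold in 19 of 28 alternatives, and not without control 6, 7 or 8 or without knockout 1, 3 or 4.

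Both factors are cut by a pair of proteases. Mbtps2, the site-2 protease, which also releases the sterol-regulated SREBP factors, read 7.37, 7.01, 7.48, 7.41 and 7.09 in knockouts and 6.83, 6.91, 6.78, 6.73 and 6.83 in controls. All 5 knockouts lay above all 5 controls, whose SD was 0.067. The difference was 0.46 (SE 0.10, 95% interval 0.23 to 0.68, limma adjusted p = 0.128), or 1.37 times the control level. Mbtps1, the site-1 protease, was at 0.16 (SE 0.080, limma adjusted p = 0.410), and 4 of its 5 knockout values lay above every control. The difference between the proteases was not tested.

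**Figure D2:**
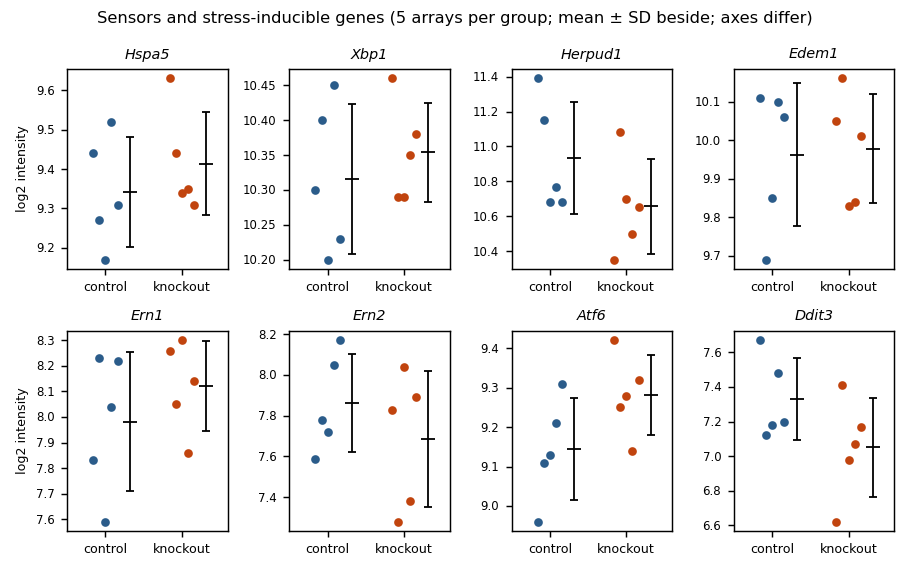
Log2 intensity on each of the 10 arrays (points; control blue, knockout red) for 7 members that act as sensors or are classical stress-inducible genes and for Ddit3, with mean ± SD of 5 arrays beside each group and a separate axis per gene. The groups overlap in every panel, and knockout means for Herpud1, Ern2 and Ddit3 lie below the control means.

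Among the chaperones and their helpers, 3 of 10 were higher and 1 was lower at the unadjusted threshold. Dnajc10 (ERdj5) reduces wrong disulfide bonds before degradation, and read 9.22, 8.49, 8.96, 8.86 and 8.91 in knockouts against 8.08, 8.55, 8.44, 8.61 and 8.46 in controls. Knockout 2 lay among the controls and the other 4 knockouts lay above all of them. The difference was 0.46 (SE 0.14, 95% interval 0.16 to 0.76, limma adjusted p = 0.189).

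Sdf2l1, which works with Dnajb11 to keep unfolded chains soluble, read 8.29, 8.11, 8.12, 8.14 and 8.09 in knockouts. Its controls were far more spread, at 7.57, 7.49, 7.45, 8.21 and 7.94, and control 9 lay above 4 of the knockouts. The difference was 0.42 (SE 0.14, limma adjusted p = 0.217). Hyou1 (GRP170), the nucleotide exchange factor of BiP, read 9.86, 9.28, 9.52, 9.51 and 9.55 against 9.13, 9.11, 8.85, 9.49 and 9.35, a difference of 0.36 (SE 0.14, limma adjusted p = 0.267). Its lowest knockout was again knockout 2 and its highest control again control 9.

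Dnajb9 (ERdj4) recruits BiP to IRE1 and is itself made under stress. It was on the opposite side, with knockouts at 9.15, 9.33, 8.97, 9.05 and 9.26 and controls at 9.57, 9.27, 9.50, 9.42 and 9.28. Of the knockouts, 4 lay below every control, and knockout 2 reached into the control range. The difference was -0.26 (SE 0.098, 95% interval -0.47 to -0.042, limma adjusted p = 0.275), or 0.837 times the control level.

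The other chaperone genes had intervals that included 0. Dnajc3, which encodes the inhibitor of PERK known as p58IPK, was at 0.17 (SE 0.11), and Manf, a secreted stress-induced protein that binds BiP, at 0.14 (SE 0.092). Dnajb11, the co-chaperone ERdj3, was at 0.092 (SE 0.11). Creld2, an ER stress-inducible protein with isomerase activity, was at -0.010 (SE 0.12), with knockouts from 8.58 to 9.06 and controls from 8.50 to 8.96.

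The disulfide isomerases and lectins were the role in which every member had a positive difference. Of these 6 genes, 4 were higher at the unadjusted threshold and 2 did not overlap between groups, with a median of 0.31. Pdia5 belongs to the family that forms and rearranges disulfide bonds, and read 7.50, 7.16, 7.39, 7.31 and 7.20 in knockouts and 6.66, 6.84, 6.66, 7.13 and 6.68 in controls. All knockouts lay above all controls, and the nearest pair was knockout 2 and control 9. The difference was 0.52 (SE 0.11, 95% interval 0.28 to 0.76, limma adjusted p = 0.118), or 1.43 times the control level, the largest of the 35.

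Pdia6, which also damps IRE1 signalling, read 10.26, 9.37, 9.84, 9.88 and 9.68 against 9.03, 9.40, 9.21, 9.73 and 9.43. Knockout 2 lay below 3 controls and control 9 above 2 knockouts, and the difference was 0.45 (SE 0.17, limma adjusted p = 0.262). Pdia3 (ERp57) acts on glycoproteins bound to the lectins, and read 11.44, 11.11, 11.20, 11.16 and 11.14 against 10.71, 11.00, 10.94, 11.07 and 11.00. Its groups did not overlap, with knockout 2 and control 9 again the nearest pair, and the difference was 0.27 (SE 0.097, limma adjusted p = 0.252). P4hb, the founding isomerase, was at 0.12 (SE 0.074), with 3 knockouts above every control.

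The lectins hold glycoproteins until they are folded. Canx, the membrane-bound calnexin, read 12.02, 11.53, 11.66, 11.50 and 11.69 in knockouts and 10.95, 11.34, 11.30, 11.52 and 11.55 in controls. The groups overlapped between 11.50 and 11.55, and the difference was 0.35 (SE 0.13, limma adjusted p = 0.275). Its soluble relative Calr was at 0.11 (SE 0.11, 95% interval -0.12 to 0.34), with knockouts from 11.49 to 11.92 and controls from 11.39 to 11.75.

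**Figure D3:**
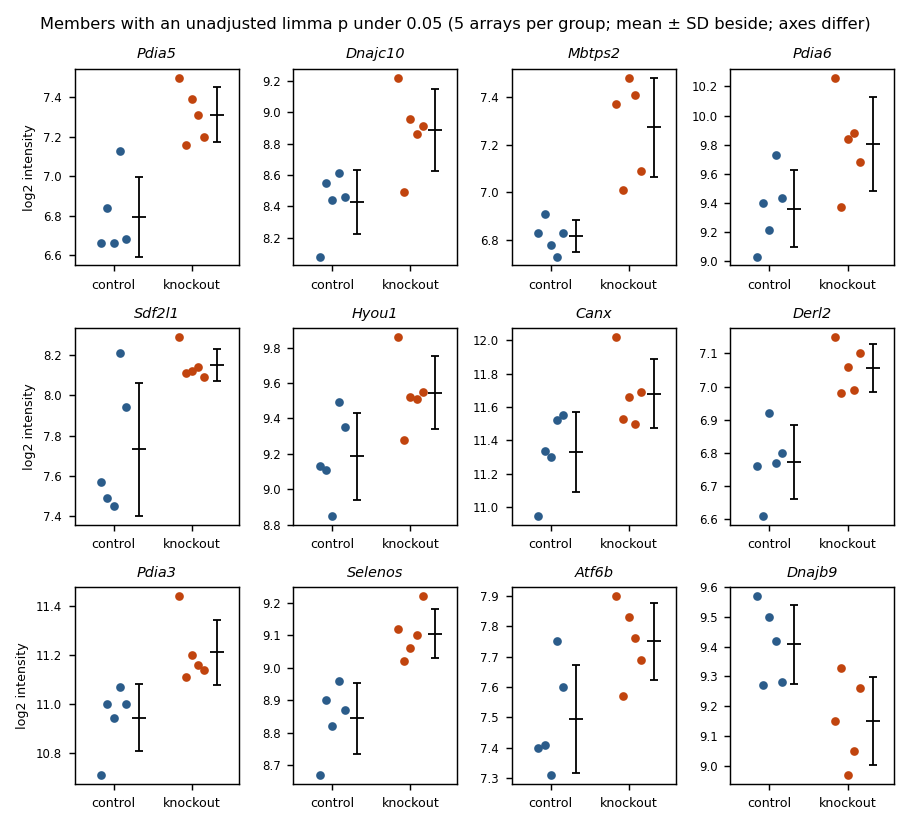
Log2 intensity on each array (points; control blue, knockout red; arrays in the order of their numbers from left to right) for the 12 members with an unadjusted limma p under 0.05, with mean ± SD of 5 arrays beside each group and a separate axis per gene. Knockout 2 is the lowest knockout in 9 of the 11 panels of higher members, and Dnajb9 is the only panel with lower knockouts.

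In the ERAD machinery, 2 of 10 members were higher and 0 lower at the unadjusted threshold. Derl2, a derlin of the channel through which misfolded proteins leave, read 7.15, 6.98, 7.06, 6.99 and 7.10 in knockouts and 6.76, 6.61, 6.92, 6.77 and 6.80 in controls. The groups did not overlap, and the difference was 0.28 (SE 0.082, limma adjusted p = 0.182). A second, dimmer probe set of Derl2 (mean log2 intensity 5.56) gave -0.070. Selenos, the selenoprotein that ties the derlins to the ATPase VCP, read 9.12, 9.02, 9.06, 9.10 and 9.22 against 8.67, 8.90, 8.82, 8.96 and 8.87, also without overlap, a difference of 0.26 (SE 0.082, limma adjusted p = 0.202). Its second, dimmer probe set (mean 4.62) gave 0.052.

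Herpud1, a strongly stress-induced partner of the ubiquitin ligase HRD1, read 10.35, 11.08, 10.70, 10.50 and 10.65 in knockouts and 11.39, 11.15, 10.68, 10.77 and 10.68 in controls. Knockouts 1, 4 and 5 lay below every control, whereas knockout 2 lay above 3 of the controls. The difference was -0.28 (SE 0.17, 95% interval -0.64 to 0.088, limma adjusted p = 0.494). Syvn1, which encodes HRD1 itself, was at -0.062 (SE 0.088), and its adapter Sel1l at -0.040 (SE 0.084).

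The EDEM proteins trim mannose from glycoproteins to mark them for degradation. Edem1, an XBP1 target, was at 0.016 (95% interval -0.22 to 0.25), with the lowest control at 9.69 and the highest knockout at 10.16. Edem2 was at 0.18 (SE 0.11) and Edem3 at 0.16 (SE 0.14). Derl1 was at 0.12 (SE 0.078). Derl3, a derlin abundant in plasma cells, was at 0.084 (SE 0.12) with a mean log2 intensity under 6 in both groups.

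The genes of protein entry were measured by a dim and a brighter probe set. Sec61b, a small subunit of the channel, was at -0.030 (SE 0.13), with means of 5.52 and 5.55. Sec11c, a catalytic subunit of the signal peptidase, read 8.88, 8.32, 8.72, 8.65 and 8.69 against 8.22, 8.37, 8.49, 8.51 and 8.49. Of the knockouts, 4 lay above every control, and the difference was 0.24 (SE 0.11, 95% interval -0.003 to 0.48, limma adjusted p = 0.367).

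The same arrays were extreme for many members. Knockout 1 was the highest knockout for 21 of the 35 members and knockout 2 the lowest for 17, with ties counted for each array. Control 9 was the highest control for 18 members and control 8 the lowest for 15. Among the 11 members higher at the unadjusted threshold, knockout 1 was the highest knockout for 9, knockout 2 the lowest for 9 and control 9 the highest control for 8. Dnajb9, Herpud1 and Edem1 ran the other way, with knockout 2 as the highest knockout and control 6 as the highest control for each. The log2 difference of Edem1 was 0.016. The mean log2 intensity over the 35 members was 9.24, 9.02, 9.10, 9.03 and 9.09 in knockouts 1 to 5 and 8.90, 8.89, 8.86, 9.06 and 9.01 in controls 6 to 10, so controls 9 and 10 lay within the knockout range or just below it.

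Marker genes of cell types also differed between arrays. All 13 measured cell cycle genes were higher in knockouts at an unadjusted p under 0.05, and their mean was 8.42, 7.45, 8.42, 8.39 and 8.00 in knockouts and 6.74, 7.48, 7.35, 7.53 and 7.53 in controls. Knockout 2 alone lay within the control range, and it was also the lowest knockout for 9 of the 11 higher members. With the cell cycle mean as a term in the fit, a choice made after seeing the data, 0 members were higher at the unadjusted threshold, against 4.52% of all genes, and the member median was 0.046. The 1 member then lower, against 3.91% of all genes, was Ern2 at -0.56 (SE 0.21, limma adjusted p = 0.550), and Dnajb9 was at -0.012. Because the cell cycle mean and the genotype nearly separate the same arrays, their parts cannot be told apart here.

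Markers of vessels, macrophages and stroma were mostly above the controls. Of 10 endothelial markers 6 were higher at the unadjusted threshold, with list means of 6.49 to 7.20 in knockouts and 5.66 to 6.57 in controls, and with that mean as a term the member median was 0.25. Of 10 macrophage markers 5 were higher (6.83 to 7.50 against 6.53 to 7.05), and with that mean as a term the median was 0.21. Among 8 fibroblast markers 4 were higher, with means of 7.13 to 8.38 and 6.72 to 8.31.

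Paneth, goblet and plasma cells are secretory cells rich in endoplasmic reticulum. Paneth cell markers had 0 of 11 past the unadjusted threshold and means of 9.03 to 11.44 in knockouts and 9.06 to 11.08 in controls, lowest on knockout 2 and control 6. Plasma and B cell markers had 1 of 14 higher, with means of 5.76 to 5.95 and 5.66 to 6.68, highest on controls 8 and 9. With the Paneth mean as a term the member median was 0.13, with the goblet mean 0.18, with the plasma and B cell mean 0.14 and with the smooth muscle mean 0.15. Of the epithelial lists, tuft cell markers had 7 of 10 lower (6.26 to 6.35 against 6.56 to 6.77), enteroendocrine markers 5 of 14 lower (7.02 to 7.33 against 7.41 to 7.76), enterocyte markers 1 of 15 lower and crypt stem cell markers 2 of 8 higher. T cell markers had 1 of 9 lower and smooth muscle markers 0 of 11 past the threshold, with smooth muscle means of 6.66 to 7.99 in knockouts and 6.30 to 9.79 in controls. The part of the lists not used as a term was not tested.

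**Figure D4:**
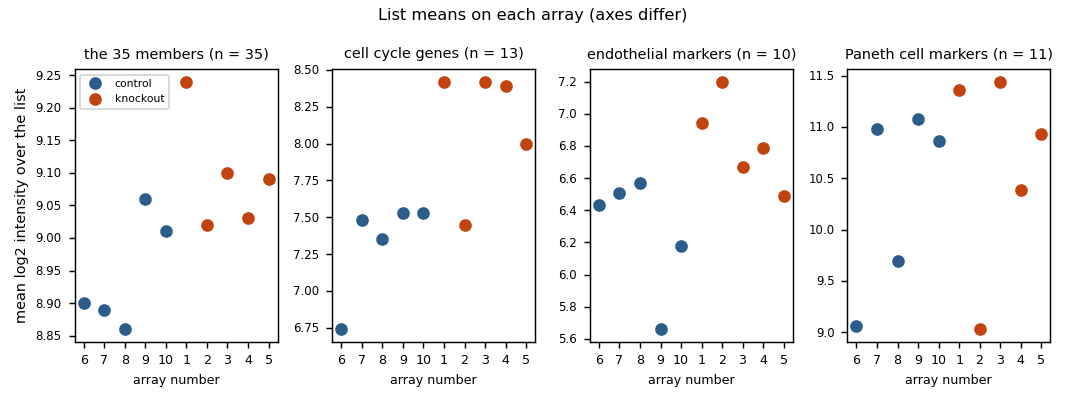
Mean log2 intensity over the 35 members, 13 cell cycle genes, 10 endothelial markers and 11 Paneth cell markers on each array (points; controls 6 to 10 blue, knockouts 1 to 5 red), with a separate axis per panel. Knockout 2 lies among the controls for cell cycle genes, is the highest array for endothelial markers and is the lowest for Paneth cell markers.

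The PERK branch was read through genes outside the 35. Of 13 measured genes 1 (7.69%, against 8.29% of all genes) was higher and 0 lower at an unadjusted p under 0.05. The median was 0.006. The higher count was 3 without control 10 or without knockout 2, and 4 with the goblet or endothelium term. It was 2 without control 7 or without knockout 4, and with the Paneth, macrophage or smooth muscle term. Median centring, array weights, a variance trend and both filters on dim genes also gave 2. It was 0 with the cell cycle term or without controls 8 and 9. The lower count was 1 without knockout 2 or with the goblet term. Atf4, the factor translated when PERK is active, read 8.42, 8.10, 8.38, 8.46 and 8.27 in knockouts and 8.00, 8.05, 8.19, 8.41 and 8.57 in controls, a difference of 0.082 (SE 0.12, limma adjusted p = 0.810). Ddit3 (CHOP), the factor linked to death under lasting stress, read 6.62, 7.41, 6.98, 7.07 and 7.17 against 7.67, 7.12, 7.18, 7.48 and 7.20, a difference of -0.28 (SE 0.15, limma adjusted p = 0.443). The gene past the threshold was Asns, the asparagine synthetase induced by ATF4, at 0.70 (SE 0.24, limma adjusted p = 0.224). Its lowest control was control 6 at 6.70, and its lowest knockout was knockout 2 at 7.62. Atf4 and Nupr1, another gene of the branch, were also the lowest of their groups on these arrays. Ddit3, Trib3 and Ppp1r15b of the same branch were the highest of their groups on them. Those arrays were also the lowest of their groups in cell cycle genes, and a link was not tested.

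Genes that bring proteins into the endoplasmic reticulum and glycosylate them were mostly above the controls. Of 31 measured genes 29 had a positive difference, 18 were higher and 1 lower at the unadjusted threshold, with a median of 0.21. Limma called 0 of them at an adjusted p under 0.05. The oligosaccharyltransferase subunit Rpn1 was at 0.43 (SE 0.12, limma adjusted p = 0.173) and the signal recognition particle subunit Srp72 at 0.37 (SE 0.11). The translocon-associated subunits Ssr3 and Ssr1 were at 0.26 (SE 0.081) and 0.44 (SE 0.14). The higher count was 7 without knockout 1, 9 without control 6, 8 with a further quantile normalisation and 0 with the cell cycle term, and the lower count was 0 without control 9.

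Other folding enzymes had 6 of 23 genes higher and 0 lower at that threshold, with a median of 0.12. The prolyl isomerase Fkbp11 was at 0.77 (SE 0.18, limma adjusted p = 0.129), with knockouts from 5.95 to 6.53 all above controls from 4.86 to 5.78. The calcium-binding Nucb2 was at 0.60 (SE 0.21), the thioredoxin-like Txndc11 at 0.31 (SE 0.11) and Uggt1, which tags unfolded glycoproteins for another round with the lectins, at 0.28 (SE 0.10). The count of 6 was 3 without knockout 1 and 1 with the cell cycle term.

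Of 20 other ERAD genes 3 were higher and 0 lower, with a median of 0.066. The higher share was 15.0%, against 8.29% of all genes and 15.5% of genes averaging 6 or more. The 3 higher genes were Vcp, the ATPase that pulls proteins out of the membrane, its cofactor Nploc4 and the shuttle factor Rad23b. They were at 0.33 (SE 0.081, limma adjusted p = 0.130), 0.21 (SE 0.072) and 0.22 (SE 0.078). The groups did not overlap for any of them, or 15.0% of the list, against 2.60% of all genes and 3.86% of genes averaging 6 or more. The higher count was 0 with the cell cycle term, and without knockout 2 1 gene was lower. Among 8 receptors of ER-phagy, the engulfment of the reticulum by autophagy, Retreg1 was at -0.95 (SE 0.41) and Rtn3 at 0.17 (SE 0.079), the only receptors past the unadjusted threshold. Leaving out 1 array gave 0 to 1 receptors higher, with 0 without any 1 of the knockouts or without control 6, 7 or 10, and 0 to 2 lower, with 2 without knockout 2 and 0 without knockout 1 or 3 or control 6, 8 or 9. For 9 further transcription factors of ER stress, including Creb3l1 and the NF-Y subunits, limma gave 0 past an unadjusted p under 0.05 and 0 past an adjusted one. Without control 8 or without control 9 1 of them was higher, and without knockout 2 1 was lower, at the unadjusted threshold.

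Chaperones of other compartments were read beside them. Of 10 mitochondrial chaperones and proteases all had positive differences and 7 were higher at the unadjusted threshold, with a median of 0.32. Hspd1 (HSP60) was at 0.60 (SE 0.16, limma adjusted p = 0.147), Htra2 at 0.29 (SE 0.084), Hspa9 at 0.37 (SE 0.11) and Dnaja3 at 0.39 (SE 0.12). With the lowest probe set of each gene, Dnaja3 was at -0.226 (SE 0.082), and 1 mitochondrial gene was lower at the unadjusted threshold. Of 18 cytosolic chaperones 4 were higher and 2 lower, with a median of 0.15, among them Stip1 at 0.50 (SE 0.14), Hspa4 at 0.29 (SE 0.082), St13 at 0.34 (SE 0.11) and Dnaja4 at -0.34 (SE 0.11). Leaving out 1 array gave 3 to 7 cytosolic genes higher, with 7 without knockout 2, and 1 to 3 lower, with 1 without knockout 2 or 4 or without control 6, 7 or 9. With the cell cycle term 0 genes of either list were higher. Limma called 0 genes of either list at an adjusted p under 0.05, and differences between the lists were not tested.

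**Figure D5:**
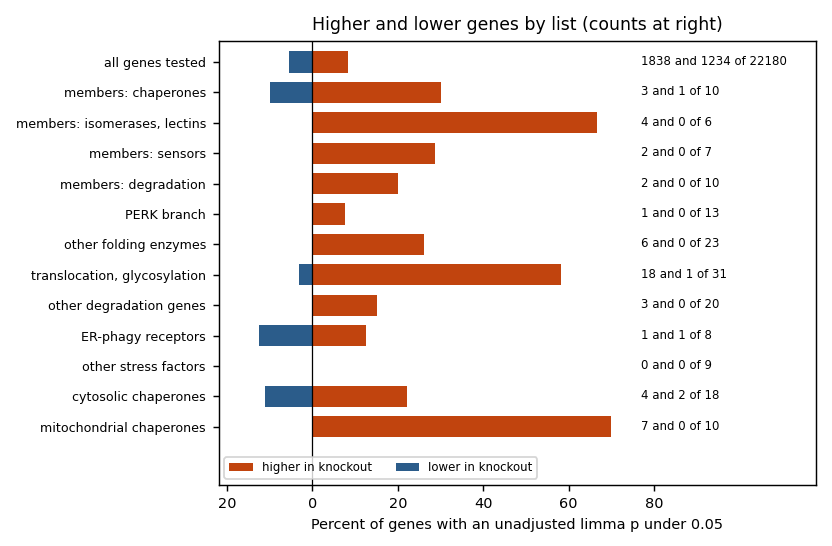
Percent of genes in each list that were higher (red, right) or lower (blue, left) in knockouts at an unadjusted limma p under 0.05, with the counts of higher and lower genes and the number measured at the right. The bar for all 22180 genes is 8.29% higher and 5.56% lower, and the translocation and glycosylation bar is 18 of 31 higher.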

How the data were processed

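The deposited values are probe set intensities on a linear scale. The submitters' processing notes name RMA and Expression Console 1.4.1.46 from Affymetrix. RMA gives arrays a common distribution, so a shift shared by most genes would not be seen. The build behind the probe sets is not given in the sources used here. Intensities lay between 1.88 and 15500.2. Of 34472 probe sets, 23521 had 1 gene symbol in the platform annotation, 1814 several and 9137 none. The first kind gave 22180 genes, each by its probe set with the highest mean. All 35 members matched RefSeq gene IDs, and 4 had a second probe set.

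Log2 intensities of 5 knockout and 5 control arrays were compared by limma 3.58.1 in R 4.3.3 (lmFit, eBayes, two-sided) over all genes, with Benjamini-Hochberg adjustment and a threshold of 0.05. The labels do not say that each array came from its own mouse. The p-values therefore reflect array-to-array spread, which may be technical, and the number of arrays limits precision. In simulated data of 22180 independent genes, 200 of them changed per run, limma recovered 43.6% of genes changed by 0.5 on the log2 scale. It recovered 89.3% of those changed by 1. In the real arrays the same arrays were extreme for many genes, so these rates do not give the power here.

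Values on every array are given for members with an unadjusted p under 0.05 or groups without overlap and for a fixed set of stress readouts. Herpud1 and Sec11c were added after their values were seen. In each other list up to 4 genes with the lowest unadjusted p under 0.05 are named. Of 306 entries in the other lists 280 were measured. Members and lists were chosen with earlier results of these data known. Alternatives covered normalisation, probe set choice, filters on dim genes, marker means as terms and arrays left out.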

Additional observations from a re-analysis of the deposited data

Results flagged for a closer look

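A single array stood apart from the other 4 of its group for 4 of the 70 member and group combinations examined with Dixon's ratio, where chance gives about 1 in 20. Among the knockouts, knockout 1 was the highest and apart from the rest for Sdf2l1 (8.29, next 8.14), Creld2 (9.06, next 8.70) and Pdia3 (11.44, next 11.20). Knockout 3 was the lowest for Mbtps1 (8.02, next 8.17). Values are log2 intensities. Without knockout 1, the count of members higher at an unadjusted p was 7 and the member median 0.12, while the share of all genes that were higher was 5.97%, against 8.29% with every array.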

How the results depend on the processing

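The 28 alternatives moved counts more than directions. Members called at an adjusted p numbered 1 with the Paneth mean as a term, 2 with the goblet mean, 1 without knockout 2 and control 6, and 0 to 3 with 1 array left out. Genes called in all, 6 in the fit as reported, were 300 with the Paneth term, 491 with the goblet term, 326 without knockout 2 and control 6, and 1 with the cell cycle term. They were 2 with the endothelium or plasma and B cell term, further quantile normalisation, median centring, or without controls 8 and 9 or knockout 1, control 7 and control 9, and 2 to 452 with 1 array left out. Higher members were 0 with the cell cycle term and 7 to 13 with 1 array left out. Lower members were 2 with the Paneth or macrophage term, 0 with the plasma and B cell term or without controls 8 and 9, and 0 to 2 with 1 array left out; the count was 0 without control 6, control 8, knockout 3 or knockout 4. Members without overlap were 3 with the average (2.58% of all genes) or the lowest probe set (2.52% of all genes). They were 10 without knockout 2 and control 6 (8.82% of all genes). With 1 array left out they were 5 to 9 (3.05% to 7.66% of all genes). The member median was 0.046 with the cell cycle term, 0.25 with the endothelium term and 0.119 to 0.172 with 1 array left out. The cause of these changes was not tested. The cell cycle, endothelium and macrophage terms were chosen after seeing the data.

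Some log2 differences changed sign. With the cell cycle term these were Pdia6 (-0.075), Calr (-0.061), Xbp1 (-0.016), Ern1 (-0.032), Edem2 (-0.042), Herpud1 (0.224), Syvn1 (0.001), Sel1l (0.109), Sec11c (-0.074), Asns (-0.133), Nucb2 (-0.032), Ssr1 (0), Retreg1 (0.12), Ddit3 (0.157) and Atf4 (-0.228). With the endothelium term they were Creld2 (0.117), Ern2 (0.145), Syvn1 (0.021), Derl3 (-0.155) and Sec61b (0.09), and with the macrophage term Creld2 (0.084), Ern2 (0.109), Syvn1 (0.022), Derl3 (-0.078) and Sec61b (0.126). The goblet term gave Creld2 0.046 and Sec61b 0.014, and the smooth muscle term Creld2 0.004 and Edem1 -0.004. Median centring gave Creld2 0.016, further quantile normalisation Edem1 -0.011 and array weights Edem1 -0.014. The average of probe sets gave Edem1 -0.095 and Sec61b 0.034, and the lowest probe set Edem1 -0.206, Derl2 -0.07, Sec61b 0.098 and Dnaja3 -0.226. Without knockout 2 and control 6 Creld2 was at 0.032 and Sec61b at 0.04, without controls 8 and 9 Sel1l was at 0.003, and without knockout 1, control 7 and control 9 Edem1 was at -0.047 and Derl3 at -0.057. With 1 array left out, Creld2 lay between -0.094 and 0.046, Edem1 between -0.052 and 0.053 and Sec61b between -0.113 and 0.05. Dnajc10, Sdf2l1, Pdia3, Pdia5 and Mbtps2 were higher at an unadjusted p under 0.05 in 27 of 28 alternatives, the exception being the cell cycle term. The other higher members were past it in 25 (Pdia6, Selenos), 24 (Hyou1, Canx, Derl2) and 19 (Atf6b), and Dnajb9 was lower in 21. No paired analysis was possible because the replicate numbers of knockouts (1 to 5) and controls (6 to 10) are not shared.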
